A study of Mus musculus with 8 samples.

Results

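Growth factors and cytokines that macrophages release into a healing infarct were followed across 8 libraries of infarct macrophages. The 10 genes were fixed by name: Igf1, Pdgfa, Pdgfb, Hbegf, Vegfb, Tgfb1, Osm, Il10, Gpnmb and Plau. They were chosen with earlier results of these data known. All 10 were found among the 53342 genes of the deposited tables, and 4 of them, Igf1, Pdgfa, Gpnmb and Plau, had enough counts for the test across all genes. The mice were wild-type C57BL/6 animals aged 8 weeks, and the cells were sorted from their infarcted hearts on day 3 after the infarction and then cultured for 24 hours. Il21r-/- mice, which the series also names, are not analysed here. Cells with little of the surface antigen Ly6C (Ly6Clo) and cells with much of it (Ly6Chi) were cultured apart, with IL-21 at 100 ng/mL or without it, which gave 4 groups of 2 libraries: Ly6Clo with IL-21, Ly6Clo without, Ly6Chi with IL-21 and Ly6Chi without. No label ties a library to a mouse or culture, so p-values measure only how far these samples spread, and that spread may be technical. All cells had spent those 24 hours in medium with serum, so levels are those of cultured cells and not of the heart itself.

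Macrophages of the infarct pass through a phase of clearing dead tissue and a phase of repair. In the repair phase they release factors that act on fibroblasts, vessels and surviving muscle. IGF-1 acts on muscle cells and fibroblasts through the receptor tyrosine kinase IGF1R, PDGF and VEGF proteins act on mural, mesenchymal and endothelial cells through receptors of the same kind, TGF-beta drives fibroblasts to lay down matrix through serine/threonine kinase receptors and SMAD proteins, and IL-10 and oncostatin M act through JAK and STAT proteins. IL-21, which comes mainly from T cells, also signals through JAK proteins and STAT3. Ly6Chi cells are the more recent monocyte descendants, and Ly6Clo cells are usually linked with repair.

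Library totals were 224329 to 483593 deposited counts, and 3 counts were worth between 6.58 and 14.9 CPM (the count unit used here, scaled to the size of the library), so the low genes among the 10 were near the limit of detection. The 2 deepest libraries were the Ly6Clo libraries numbered 2, with 444670 counts with IL-21 and 483593 without. Ly6c2, which encodes Ly6C, had 12 to 74.6 CPM in Ly6Clo libraries and 372.4 to 545.3 CPM in Ly6Chi libraries, as the labels say. Of 8 macrophage markers, 7 were present, with summed levels of 7673 to 9027 CPM in Ly6Clo and 7410 to 11942 CPM in Ly6Chi libraries. The eighth, Itgam, which encodes CD11b, had 0 counts in all 8 libraries. T cell markers, 4 of 6 of them seen in some library, summed to at most 14.9 CPM. Platelet markers summed to 2899 to 3758 CPM with IL-21 and 1710 to 2002 CPM without, all of it from Ppbp and Pf4, while Itga2b, Gp9 and Gp1bb were at 0 in every library. Platelets carry PDGF and TGF-beta proteins, and the part of this sum in the Pdgfa, Pdgfb and Tgfb1 values below was not tested.

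The start regions of Igf1 and Gpnmb are shown first, since these were the only 2 of the 10 genes with over 36.2 CPM, the level the filter on low counts asks for, in all 8 libraries. Promoter windows, 250 bases before to 50 after the annotated start, came from RefSeq (build GRCm38.p6) and were held for 5 of the 10 genes: Igf1, Gpnmb, Pdgfa with 2 starts, Tgfb1 and Vegfb. Each window is printed 5′ to 3′ on the gene's own strand, and capitals mark the motif matches found in it. The Igf1 window is chr10:87860861-87861160, plus strand, and the Gpnmb window is chr6:49036268-49036567, plus strand. The Igf1 window and both Pdgfa windows lie inside the gene coordinates given below, where Igf1 begins at 87858265. They therefore surround internal starts, and the regions before the outermost starts of Igf1 and Pdgfa are not shown.
Igf1: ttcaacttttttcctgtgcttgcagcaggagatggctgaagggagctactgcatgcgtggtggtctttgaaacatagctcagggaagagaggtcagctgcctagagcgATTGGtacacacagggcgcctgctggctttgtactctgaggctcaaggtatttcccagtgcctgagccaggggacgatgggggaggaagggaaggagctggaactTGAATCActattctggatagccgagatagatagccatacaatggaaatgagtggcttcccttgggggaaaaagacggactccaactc
Gpnmb: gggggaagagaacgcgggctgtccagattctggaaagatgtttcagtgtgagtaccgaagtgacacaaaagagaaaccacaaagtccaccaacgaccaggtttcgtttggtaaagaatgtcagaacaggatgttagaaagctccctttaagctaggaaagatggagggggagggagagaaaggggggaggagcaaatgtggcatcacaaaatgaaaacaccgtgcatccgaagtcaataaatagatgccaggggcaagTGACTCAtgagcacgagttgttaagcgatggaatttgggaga

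Short motifs were searched on both strands of each window. The STAT motif was searched as TTCNNNGAA. The AP-1 motif was searched as TGANTCA. Factors of the MiT/TFE family, which act on lysosomal genes, were represented by 2 motifs, of which the first was CACGTG. The second MiT/TFE motif was CATGTG. The GC box was searched as GGGCGG. The remaining 2 were the TATA box, as TATAAA, and the CCAAT box. No matches of different motifs overlapped in the windows of Igf1 and Gpnmb. The Igf1 window held TGAATCA, an AP-1 match, with its first base 37 bases before the start, and CCAAT in reverse orientation 142 bases before it. The Gpnmb window held TGACTCA, an AP-1 match, from the base numbered 9 when the start base is counted as 1. AP-1 letters occurred in 7.81% and CCAAT letters in 37.4% of all 32851 windows. STAT letters occurred in 8.3% of all windows and in none of the 6 windows of these 5 genes. The second MiT/TFE motif occurred in 14.2% of all windows and here in the Vegfb window, in reverse orientation. The first occurred in 7.15% and the TATA box in 13.6% of all windows, and neither was in any of the 6. The GC content was 52.3% in the Igf1 window and 47.7% in the Gpnmb window, against a median of 52.7% over all windows. The other 4 windows, of Pdgfa, Tgfb1 and Vegfb, had 67% to 77% GC and each held the GC box letters, which 35.7% of all windows hold. These matches describe letters in a window and say nothing of binding.

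Igf1 was the 1 gene of the 10 for which all 4 Ly6Clo libraries lay above all 4 Ly6Chi libraries. Igf1 (ENSMUSG00000020053, chromosome 10, 87858265 to 87937042, plus strand) encodes insulin-like growth factor 1, a secreted factor that promotes growth and survival of muscle cells and activates fibroblasts. With IL-21, Ly6Clo libraries numbered 1 and 2 had 735.5 and 779 CPM, and without IL-21 they had 1001 and 1091 CPM. Ly6Chi libraries had 425.5 and 427 CPM with IL-21 and 521 and 549 CPM without. The 4 groups of 2 did not overlap with one another either, and the share of tested genes with this pattern was not computed.

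**Figure D1:**
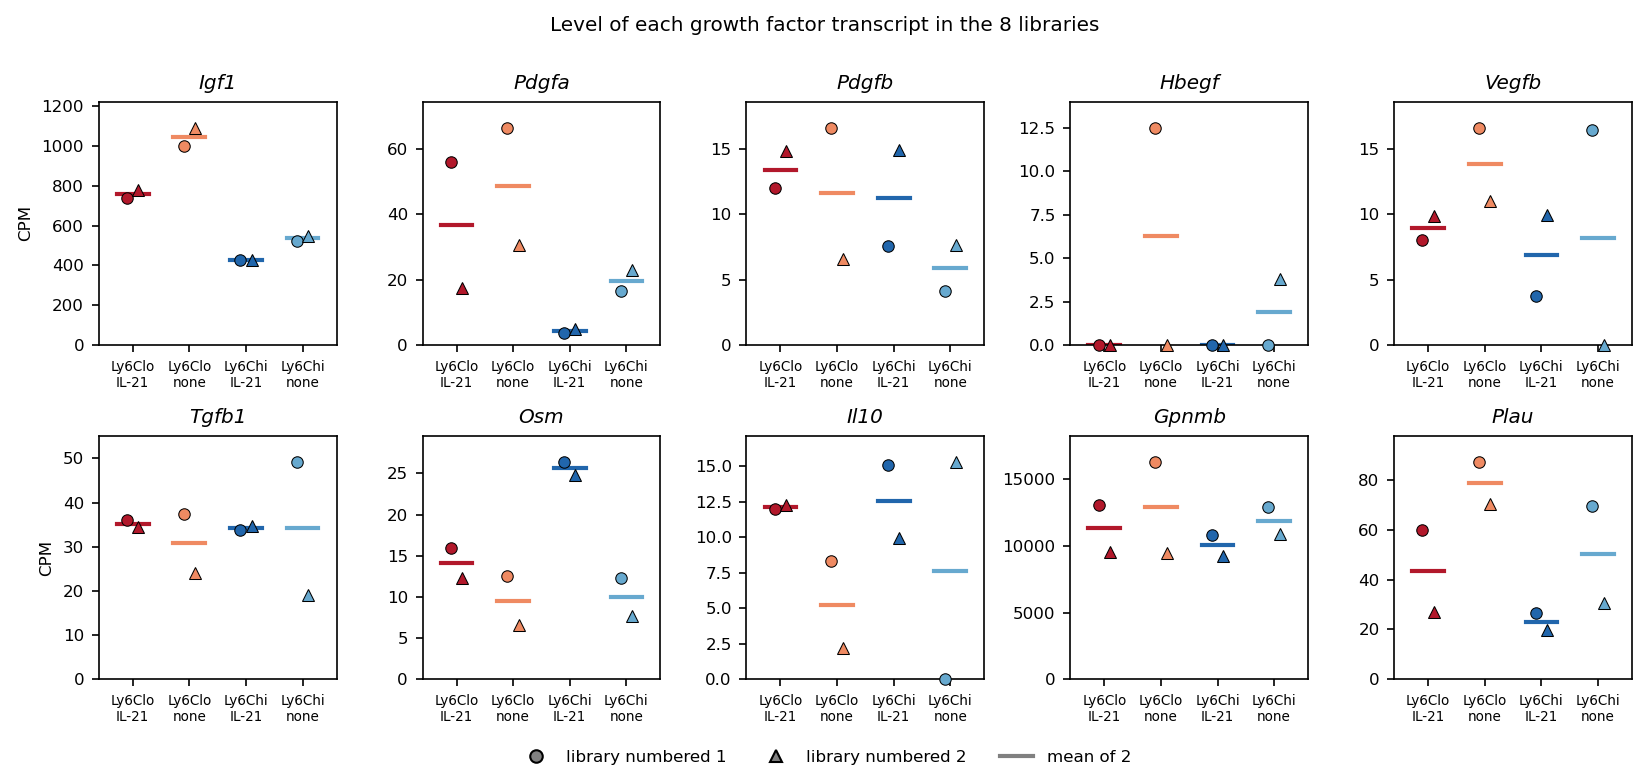
Level of each of the 10 genes in CPM (y axis, from 0, a scale of its own for each gene) in the 4 groups (x axis), with a circle for the library numbered 1, a triangle for the library numbered 2 and a bar for their mean. Igf1 lies at 735.5 to 1091 CPM in Ly6Clo and at 425.5 to 549 CPM in Ly6Chi, while Hbegf is at 0 in 6 of 8 libraries.

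Averaged over both stimulations, Igf1 was 1.86-fold higher in Ly6Clo, at 901 ± 171.5 CPM in Ly6Clo and 481 ± 63.8 CPM in Ly6Chi (SD, n = 4 each). The log2 fold change was 0.90 (SE 0.15, 95% interval 0.59 to 1.21), with 0.0226 as its edgeR adjusted p, corrected by the Benjamini-Hochberg method over 5256 genes. Igf1 was thus the 1 gene of the 10 called in this comparison, where 0.19% of all tested genes were called in either direction and 0.0951% were called higher. Groups that did not overlap, with all 4 Ly6Clo libraries above all 4 Ly6Chi libraries, were found for 2.64% of tested genes, and the opposite order for 2.74%. The call depended on single libraries: it held without the Ly6Clo library without IL-21 numbered 2 (edgeR adjusted p 0.0429) and ended when any of the other 7 libraries was left out, with edgeR adjusted p values of 0.0525 to 0.148, while the log2 fold change stayed between 0.86 and 0.94.

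The subset difference in Igf1 had a similar size with and without IL-21. The log2 fold change of Ly6Clo over Ly6Chi was 0.83 (SE 0.21, 95% interval 0.38 to 1.28) with IL-21 and 0.97 (SE 0.21, 95% interval 0.53 to 1.41) without. Neither passed over all genes in groups of 2, at edgeR adjusted p values of 0.503 and 0.224. Of the 10 genes, 4 were tested and 0 were called in either comparison. Of all tested genes, 0.019% were called with IL-21 and 0.0381% without. Blocking on the replicate number, Igf1 passed in both, at edgeR adjusted p values of 0.00942 with IL-21 and 0.000912 without, in fits that called 0.78% and 0.59% of tested genes. At an unadjusted edgeR p under 0.05 the fit without the block held Igf1 and Pdgfa with IL-21, among 277 of 5256 tested genes. Without IL-21 it held Igf1, among 238 genes. Pdgfa passed the filter on low counts only through 2 Ly6Clo libraries, where it is highest. Among libraries numbered 1 the log2 ratio of Igf1 was 0.78 with IL-21 and 0.94 without (5 CPM added to each level), and among libraries numbered 2 these were 0.86 and 0.98. Monocyte markers ran the opposite way, with 6 genes summing to 186.5 to 452 CPM in Ly6Clo and 836 to 990.2 CPM in Ly6Chi libraries. Among the 6 is Ly6c2, the gene of the antigen that defines the subsets, so the direction of this sum was in part set by the sort. Ly6c2 averaged 47.9 CPM in Ly6Clo and 458.5 CPM in Ly6Chi. The others were also lower on average in Ly6Clo, from Ccr2 at 93 against 103.3 CPM to Plac8 at 13.4 against 109.2 CPM. In bulk libraries such as these, fewer cells of a type and less RNA per cell cannot be told apart.

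Igf1 is also expressed by fibroblasts, so their markers are given beside it. The 8 fibroblast markers, all of them seen in some library, summed to 24.9 to 165.1 CPM in Ly6Clo and 22.6 to 194.5 CPM in Ly6Chi libraries. With IL-21 these sums were 143.9 and 165.1 CPM in Ly6Clo and 22.6 and 94.3 CPM in Ly6Chi libraries, so they were higher in Ly6Clo, as Igf1 was. Without IL-21 they were 24.9 and 37.3 CPM in Ly6Clo and 77.9 and 194.5 CPM in Ly6Chi libraries, lower in Ly6Clo, where Igf1 was higher. The part of fibroblast RNA in the Igf1 levels was not tested. Igf1os, an antisense gene within the Igf1 locus, had at most 1 count in any library. The deposited Igf1 value was not a whole number in 7 of 8 libraries, and how such values arose is not given in the labels.

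IL-21 went with lower Igf1 levels in both subsets, though no test passed. The mean was 592 ± 191.9 CPM with IL-21 and 790.3 ± 297 CPM without (SD, n = 4 each), with both subsets in each group. Within Ly6Clo it was 757 ± 30.6 CPM with and 1046 ± 63.7 CPM without IL-21, and within Ly6Chi 426 ± 1.08 CPM with and 535 ± 20.2 CPM without (SD, n = 2 each). Averaged over the subsets, Igf1 had a log2 fold change of -0.40 (SE 0.15, 95% interval -0.71 to -0.08) at edgeR adjusted p 0.781. It was -0.47 (SE 0.20) in Ly6Clo and -0.33 (SE 0.21) in Ly6Chi, and the difference between them was -0.14 (SE 0.29, 95% interval -0.76 to 0.49), each at an edgeR adjusted p of 1. The log2 ratio was -0.44 in the Ly6Clo pair numbered 1, -0.48 in the Ly6Clo pair numbered 2, and -0.29 and -0.36 in the Ly6Chi pairs. Marker sums of several cell types moved with IL-21 in all 4 pairs. The 6 Ly6Chi monocyte markers summed to 451.7 and 258.8 CPM with and 265.7 and 186.5 CPM without IL-21 in Ly6Clo, and to 990.2 and 968.2 CPM with and 836.3 and 880.9 CPM without in Ly6Chi. The 6 dendritic cell markers, of which Clec9a and Cd209a were at 0 in all 8 libraries, summed to 7.99 and 24.6 CPM with and 29.1 and 87.8 CPM without IL-21 in Ly6Clo, and to 0 and 4.96 CPM with and 20.5 and 41.9 CPM without in Ly6Chi. These sums rest on 0 to 10 counts per library with IL-21 and 5 to 40 without. Ccr7 held most of them, 48 counts in all with 29 in a single library. Ccr7, Xcr1 and Flt3 were lower on average with IL-21, and Zbtb46 was higher, at 3.23 against 2.14 CPM. The 5 smooth muscle and pericyte markers, at 1 to 11 counts per library, summed to 11.3 to 44 CPM with and 4.1 to 11 CPM without IL-21. The platelet sums given above were also higher with IL-21 in all 4 pairs. The part of any of these in the IL-21 comparisons of the 10 genes was not tested.

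Ordered by level, Igf1 was highest in Ly6Clo without IL-21, then in Ly6Clo with IL-21, Ly6Chi without IL-21 and Ly6Chi with IL-21. Each step was larger than the range of the 2 libraries on either side of it, but between neighbours in this order that differ by IL-21 the test across genes did not pass, and the middle 2 groups were not tested against each other. The genes most like Igf1 over the 8 libraries were Prmt2 and Arhgap10, whose centred log2 CPM lay a root mean square of 0.17 and 0.18 from that of Igf1, which itself varied by 0.49. These 2 were the nearest of 2923 genes with a mean of at least 20 counts.

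For the IL-21 comparisons as a whole, 4 of the 10 genes were tested, and 0 were called in any of them by edgeR's quasi-likelihood test. The shares of all tested genes called were 0.171% averaged over both subsets, 0.133% in Ly6Clo and 0.019% in Ly6Chi, and all of those calls were of higher genes. The difference between the IL-21 effects of Ly6Clo and Ly6Chi had 0% of genes called, none of the 10 among them. At an unadjusted p under 0.05 the averaged comparison held 280 genes, Igf1 (p 0.0161 by edgeR) and Plau (p 0.0162 by edgeR) among them, and the comparison of the effects held 92, none of them among the 10. DESeq2 and limma-voom, with the same 4 of the 10 tested, also called 0 of them in each IL-21 comparison. At that unadjusted threshold edgeR held Igf1 in Ly6Clo, among 185 of 5256 tested genes. In Ly6Chi edgeR held 185 genes, none of the 10 among them. The fitted change of Igf1 was -0.47 in Ly6Clo and -0.33 in Ly6Chi. With a difference of -0.14 (SE 0.29), a difference between the subsets was not shown.

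Plau had the lowest levels in IL-21-treated Ly6Chi cells and the highest in unstimulated Ly6Clo cells. Plau (ENSMUSG00000021822, chromosome 14, 20836660 to 20843385, plus strand) encodes urokinase, a serine protease that turns plasminogen into plasmin, which dissolves fibrin and releases matrix-bound growth factors. In Ly6Clo its level was 60 and 27.1 CPM with IL-21, and 87.2 and 70.2 CPM without. In Ly6Chi it was 26.4 and 19.9 CPM with IL-21, and 69.7 and 30.5 CPM without. Within each subset both libraries with IL-21 were below both libraries without, but over the subsets together the groups overlapped. The share of tested genes with this order within each subset was not computed.

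Plau averaged 33.3 ± 18.1 CPM with IL-21 and 64.4 ± 24 CPM without (SD, n = 4 each). Its log2 fold change was -0.99 (SE 0.36, 95% interval -1.77 to -0.21), and at an edgeR adjusted p of 0.781 the difference did not pass. The summed counts were 37 with IL-21 and 78 without, a ratio per scaled total of 0.508 with an exact 95% counting interval of 0.334 to 0.761. Counting intervals of this kind leave out the variation between samples, and if amplified copies of a molecule were counted they are too narrow. The averaged change was -0.63 without the Ly6Chi library without IL-21 numbered 1. The fitted change was -0.91 (SE 0.44) in Ly6Clo and -1.07 (SE 0.58) in Ly6Chi. With 1 library left out it ran from -1.5 to -0.36 in Ly6Clo, the ends being without the IL-21 libraries numbered 1 and 2, and from -1.55 to -0.35 in Ly6Chi, the ends being without the unstimulated libraries numbered 2 and 1. Ly6Clo had 61.1 ± 25.3 CPM and Ly6Chi 36.6 ± 22.5 CPM (SD, n = 4 each), which the fit gave as 0.71 (SE 0.37) on the log2 scale at an edgeR adjusted p of 0.655.

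Pdgfa was higher on average in Ly6Clo than in Ly6Chi cells, at low counts. Pdgfa (ENSMUSG00000025856, chromosome 5, 138976014 to 138997370, minus strand) encodes the A chain of platelet-derived growth factor, which drives mesenchymal cells and fibroblasts. In Ly6Clo its level was 56 and 17.3 CPM with IL-21, and 66.4 and 30.7 CPM without. In Ly6Chi it was 3.77 and 4.96 CPM with IL-21, 1 count in each library, and 16.4 and 22.9 CPM without. The subsets overlapped, since 17.3 CPM in a Ly6Clo library with IL-21 lay below 22.9 CPM in a Ly6Chi library without it.

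The averaged level of Pdgfa was 42.6 ± 22.6 CPM in Ly6Clo and 12 ± 9.22 CPM in Ly6Chi (SD, n = 4 each). The fitted log2 fold change of 2.02 (SE 0.63, 95% interval 0.68 to 3.36) missed the threshold, at edgeR adjusted p 0.36. Blocking on the replicate number gave an edgeR adjusted p of 0.031 (log2 fold change 2.08, SE 0.54), in a fit that called 2.51% of tested genes, and over all alternatives the adjusted p ran from 0.031 to 0.78. Summed counts were 51 in Ly6Clo and 12 in Ly6Chi, a ratio of 3.06 with an exact 95% counting interval of 1.61 to 6.3. Pdgfa passed the filter on low counts only through the Ly6Clo libraries numbered 1, where it is highest. An antisense gene, 6330403L08Rik, overlaps Pdgfa and had 0 to 8 counts per library, the 8 in a Ly6Chi library without IL-21, and since the use of strand in counting is not given, Pdgfa counts are uncertain to that extent.

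With IL-21, Pdgfa averaged 20.5 ± 24.4 CPM, against 34.1 ± 22.3 CPM without (SD, n = 4 each). Over both subsets the fit for Pdgfa gave a log2 fold change of -1.26 (SE 0.66, 95% interval -2.67 to 0.15) with an edgeR adjusted p of 0.996. In Ly6Chi 2 counts in all with IL-21 stood against 10 without, a ratio of 0.217 with an exact 95% counting interval of 0.0231 to 1.02. In Ly6Clo 21 counts stood against 30, a ratio of 0.743 with an interval of 0.404 to 1.34. The difference between the fitted effects, Ly6Clo minus Ly6Chi, was 1.67 (SE 1.33), with 1 as its edgeR adjusted p.

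**Figure D2:**
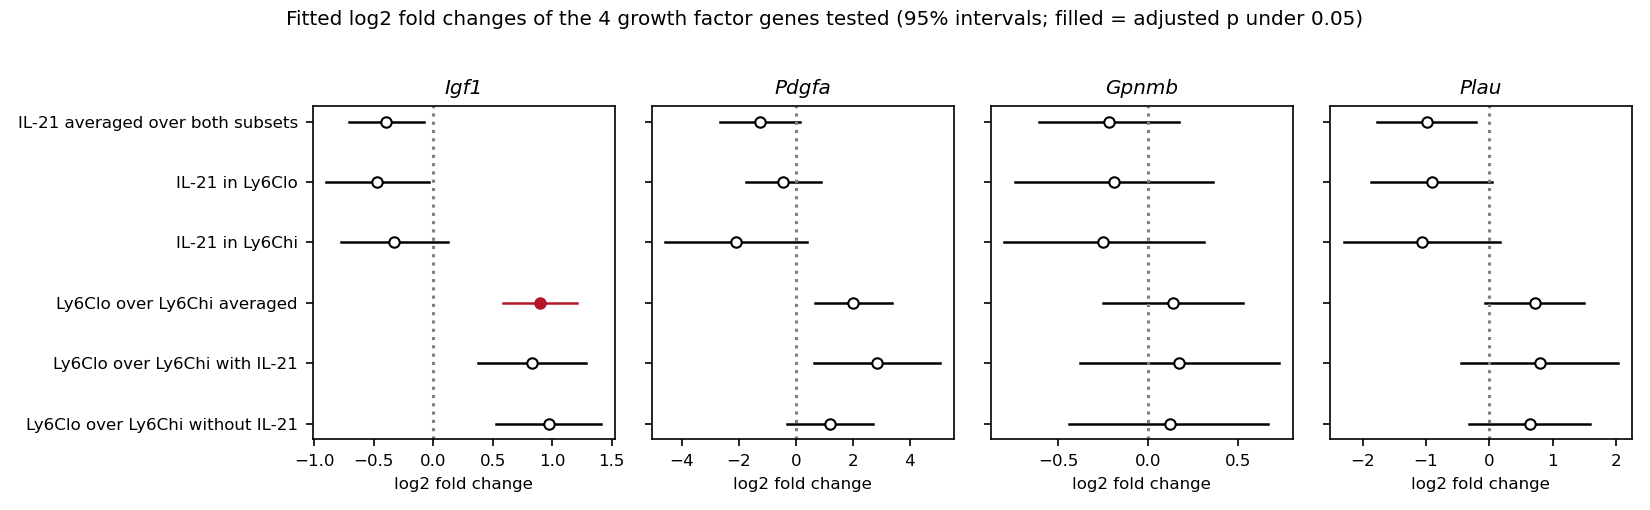
Fitted log2 fold changes (x axis, a scale of its own for each gene) with 95% intervals for the 4 growth factor genes tested, in 6 comparisons (y axis), positive where the group named first is higher. The 1 filled red point, Igf1 in Ly6Clo over Ly6Chi averaged at 0.90, passed the edgeR test over all genes, and the open points did not.

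Gpnmb had by far the most counts of the 10, and no comparison of it passed. Gpnmb (ENSMUSG00000029816, chromosome 6, 49036546 to 49070929, plus strand) encodes a transmembrane glycoprotein of lysosomes and the cell surface whose outer part can be shed, and it is a well-known gene of lipid-laden and repair macrophages. It took 1.04% of all counts. Since the kit reads the 3′ end of each transcript, CPM values were not divided by gene length. Ly6Clo libraries had 13079 and 9564 CPM with IL-21, and 16310 and 9505 CPM without. Ly6Chi libraries had 10855 and 9225 CPM with IL-21, and 12922 and 10896 CPM without. In each group the library numbered 1 was above the library numbered 2, and the groups overlapped.

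The log2 fold change of Gpnmb was -0.22 (SE 0.18, 95% interval -0.61 to 0.17) with IL-21 and 0.14 (SE 0.18, 95% interval -0.25 to 0.53) for Ly6Clo over Ly6Chi, at edgeR adjusted p values of 1 and 0.914. Gpnmb had 1858 to 4331 counts per library, so its counting error was small beside the spread between libraries. The 95% interval leaves room for a change of at most 0.61 on the log2 scale downwards with IL-21. The genes nearest to Gpnmb over the 8 libraries were C1qbp and Canx, at a root mean square difference of 0.08 and 0.09 log2 CPM, against a spread of 0.27 in Gpnmb itself.

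The remaining 6 genes had 4 to 76 counts over all 8 libraries and did not pass the filter on low counts. Their levels are given with counting error only. Tgfb1, which encodes transforming growth factor beta 1, the main inducer of matrix production by fibroblasts, was the best covered of them, with 5 to 14 counts per library (ENSMUSG00000002603, chromosome 7, 25687002 to 25705077, plus strand). Its level was 36 and 34.5 CPM in Ly6Clo with IL-21, and 37.4 and 24.1 CPM in Ly6Clo without. In Ly6Chi it was 33.9 and 34.8 CPM with IL-21, and 49.2 and 19.1 CPM without. The ratio of summed counts was 1.13 for IL-21 (39 counts with, 37 without, exact 95% interval 0.701 to 1.82) and 0.938 for Ly6Clo over Ly6Chi (43 and 33 counts, 0.582 to 1.52), so no difference in Tgfb1 was detectable at this depth.

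Osm, which encodes oncostatin M, an IL-6 family cytokine of activated myeloid cells, had 2 to 7 counts per library (ENSMUSG00000058755, chromosome 11, 4236420 to 4241026, plus strand). It was at 16 and 12.3 CPM in Ly6Clo with IL-21, and at 12.5 and 6.58 CPM in Ly6Clo without. In Ly6Chi it was at 26.4 and 24.8 CPM with IL-21, and at 12.3 and 7.63 CPM without. In each of the 4 pairs of the same subset and number the level with IL-21 was the higher, and the groups overlapped by a small margin. Of the tested genes, which have more counts and do not include Osm, 9.87% had this pattern. The share among genes with as few counts as Osm is not given. Summed counts were 21 with IL-21 and 11 without, a ratio of 2.04 with an exact 95% counting interval of 0.942 to 4.7. For Ly6Clo over Ly6Chi the ratio was 0.635 (15 and 17 counts, 0.295 to 1.35).

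Il10, which encodes interleukin 10, a cytokine that restrains inflammatory macrophages, had 0 to 5 counts per library (ENSMUSG00000016529, chromosome 1, 131019845 to 131024974, plus strand). Its level was 12 and 12.3 CPM in Ly6Clo with IL-21, and 8.3 and 2.19 CPM in Ly6Clo without. In Ly6Chi it was 15.1 and 9.93 CPM with IL-21, and 0 and 15.3 CPM without. The summed counts were 14 with IL-21 and 7 without, a ratio of 2.14 with an exact 95% counting interval of 0.809 to 6.27, so no difference was detectable at this depth. For Ly6Clo over Ly6Chi the ratio was 0.792 (11 and 10 counts, 0.305 to 2.08).

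Pdgfb, the B chain of platelet-derived growth factor, which recruits the mural cells of new vessels, had 1 to 6 counts per library (ENSMUSG00000000489, chromosome 15, 79995874 to 80014977, minus strand). Its level was 12 and 14.8 CPM in Ly6Clo with IL-21 and 16.6 and 6.58 CPM without, and 7.53 and 14.9 CPM in Ly6Chi with IL-21 and 4.1 and 7.63 CPM without. The count ratio was 1.5 for IL-21 (14 and 10 counts, exact 95% interval 0.619 to 3.77) and 1.44 for Ly6Clo over Ly6Chi (16 and 8 counts, 0.581 to 3.88). Between the subsets the A chain had a ratio of 3.06, and the counting intervals of the 2 chains overlapped.

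Vegfb, a member of the vascular endothelial growth factor family that binds VEGFR1, had 0 to 5 counts per library (ENSMUSG00000024962, chromosome 19, 6982473 to 6987651, minus strand). Its level was 7.99 and 9.86 CPM in Ly6Clo with IL-21 and 16.6 and 11 CPM without, and 3.77 and 9.93 CPM in Ly6Chi with IL-21 and 16.4 and 0 CPM without. Ratios were 0.741 for IL-21 (9 and 13 counts, exact 95% interval 0.28 to 1.87) and 1.54 for Ly6Clo over Ly6Chi (15 and 7 counts, 0.592 to 4.47). Hbegf, the heparin-binding ligand of the EGF receptor, was at 0 in all 4 libraries with IL-21, where the limit that a count of 0 allows, set at 3 counts over these 4 libraries together, is 2.67 CPM, and after rounding had 3 counts in a Ly6Clo and 1 in a Ly6Chi library without IL-21 (ENSMUSG00000024486, chromosome 18, 36504927 to 36515805, minus strand). Nothing could be said of a change in Hbegf at this depth.

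**Figure D3:**
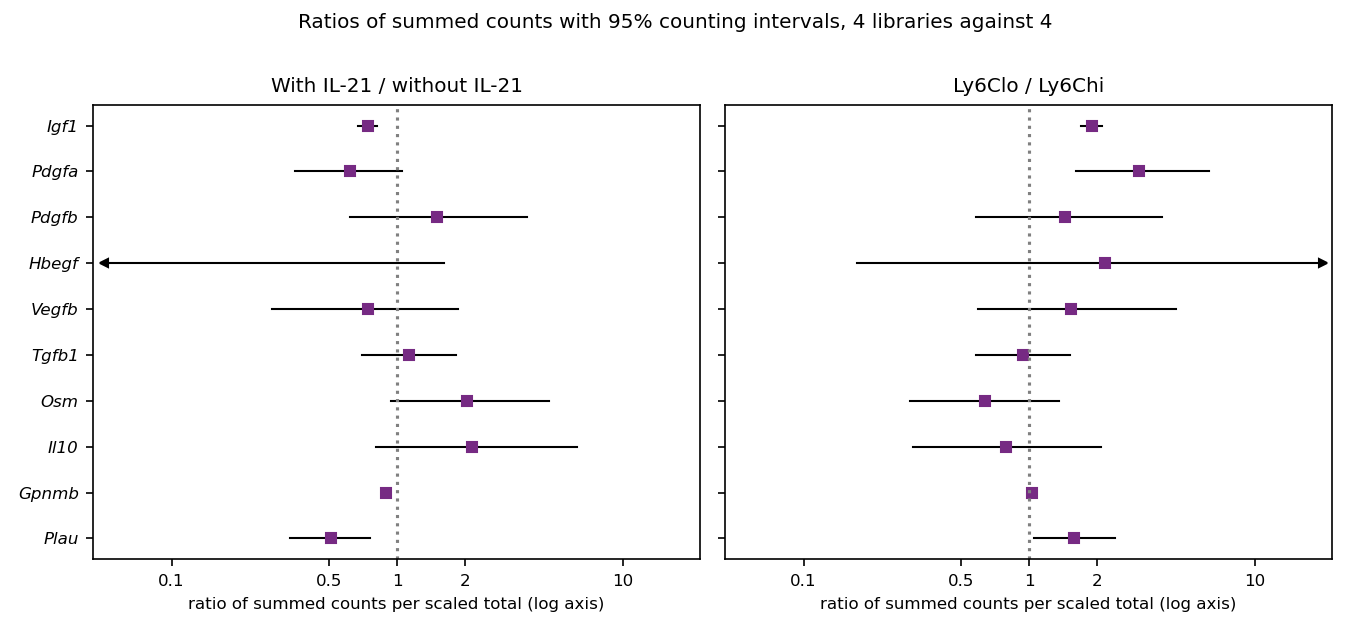
Ratio of summed counts per scaled library total (x axis, log scale) for the 10 genes, with IL-21 over without on the left and Ly6Clo over Ly6Chi on the right, 4 libraries against 4, with bars for the exact 95% counting interval, which leaves out variation between samples. An arrow marks an interval that runs past the axis, and Hbegf has no point on the left because it had 0 counts with IL-21. The intervals of Igf1, Plau and Gpnmb lie below 1 on the left, and those of Igf1, Pdgfa, Plau and Gpnmb lie above 1 on the right, with Gpnmb at 0.893 on the left and 1.03 on the right.

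Set side by side, Igf1, Pdgfa and Plau were each lower with IL-21 in all 4 pairs of the same subset and number, as were 8.96% of tested genes. The same 3 genes were higher in Ly6Clo in all 4 pairs of the same stimulation and number, as were 10.9% of tested genes. Pdgfa was among the tested genes only through Ly6Clo libraries, where it is highest, so that share is no fair background for its direction. Plau reached the filter's level in 4 libraries. These were both Ly6Clo libraries without IL-21 and, of those numbered 1, Ly6Clo with IL-21 and Ly6Chi without. They lie mostly in the groups where Plau is high, so neither share is a fair background for Plau. The summed dendritic cell markers given above, at low counts and mostly from Ccr7, were likewise lower with IL-21 and higher in Ly6Clo in all 4 pairs. The monocyte markers, a sum that includes Ly6c2, were higher with IL-21 and lower in Ly6Clo in all 4. Their part in these directions was not tested. The 2 comparisons use the same 8 libraries. Gpnmb, Tgfb1, Pdgfb, Il10, Vegfb and Hbegf were mixed or tied in direction in both, and Osm was higher with IL-21 in 4 of 4 pairs and mixed between the subsets.

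The genes around these factors were read from 10 lists of ligands, receptors and targets, and 3 of their tested genes were called in the averaged IL-21 comparison, all higher, where 0.171% of all tested genes were called. The lists were chosen with earlier results of these data known, so these counts are a description. Of 13 tested TGF-beta pathway genes 1 rose and 0 fell, with a median log2 fold change of 0.07, against -0.01 over all genes. The gene that rose was Tgfbi, a matrix protein induced by TGF-beta, with 1354 ± 166.4 CPM with IL-21 and 683.5 ± 182.2 CPM without (SD, n = 4 each, edgeR adjusted p 0.0105), while Tgfb1 itself had the count ratio of 1.13 given above. Tgfbr1, the type I receptor, averaged 76 ± 21.6 CPM with and 116.6 ± 21.1 CPM without IL-21, and its log2 fold change of -0.66 (SE 0.25, edgeR adjusted p 0.794) did not pass. In the Ly6Clo over Ly6Chi comparison 0 of these 13 genes were called and the median was 0.07.

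Of 7 tested genes of the oncostatin M and IL-6 family 1 rose with IL-21, the feedback inhibitor Socs3, at 157 ± 49.4 CPM with and 25.7 ± 16.3 CPM without (SD, n = 4 each, edgeR adjusted p 0.00062). The list's median was 0.23. Stat3, a transcription factor that this cytokine family activates, had a log2 fold change of 0.57 (SE 0.19, edgeR adjusted p 0.7). Osmr, the specific chain of the oncostatin M receptor, was at 0 in all 8 libraries. Of 7 tested genes around IL-10, 1 rose, Il4ra, the receptor chain for IL-4 and IL-13, at 471 ± 112.9 CPM with and 113 ± 49.4 CPM without IL-21 (SD, n = 4 each, edgeR adjusted p 0.0186), and the list's median was 0.24. Bcl3, a nuclear partner of NF-kappaB p50, had a log2 fold change of 0.87 (SE 0.27, edgeR adjusted p 0.551). Il10rb, a chain of the IL-10 receptor, had 98 to 268 counts per library, and Il10ra, its specific chain, had 3 to 10.

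None of the tested genes of the other lists passed in the averaged IL-21 comparison. These were 2 genes around IGF-1 (median log2 fold change 0.20), 4 of the EGF family (-0.28), 12 of the lysosomal MiT/TFE programme listed with Gpnmb (0.14), 3 of the VEGF pathway (0.07), 7 of plasminogen activation (0.13) and 8 other growth factors and ligands (0.05), and of 4 PDGF pathway genes 0 could be tested. Irs2, an adaptor of the IGF-1 and insulin receptors, was at 0.66 (SE 0.38) and Igf2r, a scavenging receptor of IGF-2, at -0.26 (SE 0.19). The tetraspanin Cd9, a partner of membrane-bound HB-EGF, was at -0.63 (SE 0.22), with 271 ± 81.3 CPM with and 424 ± 147.6 CPM without IL-21, and the sheddase Adam10 at -0.41 (SE 0.37). Sdc4, which encodes the proteoglycan syndecan 4, a binding partner of GPNMB, was at 0.80 (SE 0.26), and Atp6v0d2, a proton pump subunit, at -0.89 (SE 0.41).

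The VEGF co-receptors Nrp2 and Nrp1 were at 0.33 (SE 0.15) and -0.13 (SE 0.19). Plgrkt, a plasminogen receptor, was at 0.42 (SE 0.25), and Lrp1, which clears urokinase complexes, at 0.20 (SE 0.19). Spp1, which encodes osteopontin and is held by 2 of the lists, was at 0.64 (SE 0.31), and Il1b, with 0 to 12 counts per library, at -1.11 (SE 0.86). The edgeR adjusted p of these genes ran from 0.628 to 1.

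In the averaged Ly6Clo over Ly6Chi comparison 0 tested genes of the 10 lists were called, and 0 were called in either stimulation alone. List medians ran from -0.29 for the oncostatin M and IL-6 family to 0.22 for the other growth factors, against 0 over all genes. Within Ly6Clo 2 list genes were called with IL-21, Tgfbi and Socs3, where 0.133% of tested genes were called, and within Ly6Chi 0 were, where 0.019% were. In Ly6Chi the log2 fold change was 2.14 for Socs3 (SE 0.40, edgeR adjusted p 0.171) and 0.82 for Tgfbi (SE 0.22, edgeR adjusted p 1). The difference of the IL-21 effects, Ly6Clo minus Ly6Chi, was 1.27 (SE 0.66) for Socs3 and 0.39 (SE 0.31) for Tgfbi, both at an edgeR adjusted p of 1, so a difference between the subsets was not shown.

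Counts of receptors for several of these factors were at or near 0 in these macrophage libraries. The macrophage marker Itgam was also at 0 in all 8 libraries, so a count of 0 is not read here as absence from the cells. Egfr, the receptor of HB-EGF, was at 0 in all 8 libraries, Pdgfra and Pdgfrb, the receptors of the PDGF chains, had 3 and 2 counts in all, and Flt1, the receptor of VEGF-B, had 12. Igf1r was low, with 2 to 9 counts per library, and did not pass the filter on low counts. Plaur, the urokinase receptor, had 88.4 ± 24.6 CPM with IL-21 and 83.2 ± 41.3 CPM without (SD, n = 4 each). Kdr, a VEGF receptor and endothelial marker, had 14 to 91 counts per library, while the endothelial markers Tek and Emcn were at 0 in all 8 libraries and Pecam1 had 0 in 6 of them and 2.46 and 7.99 CPM in the others.

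**Figure D4:**
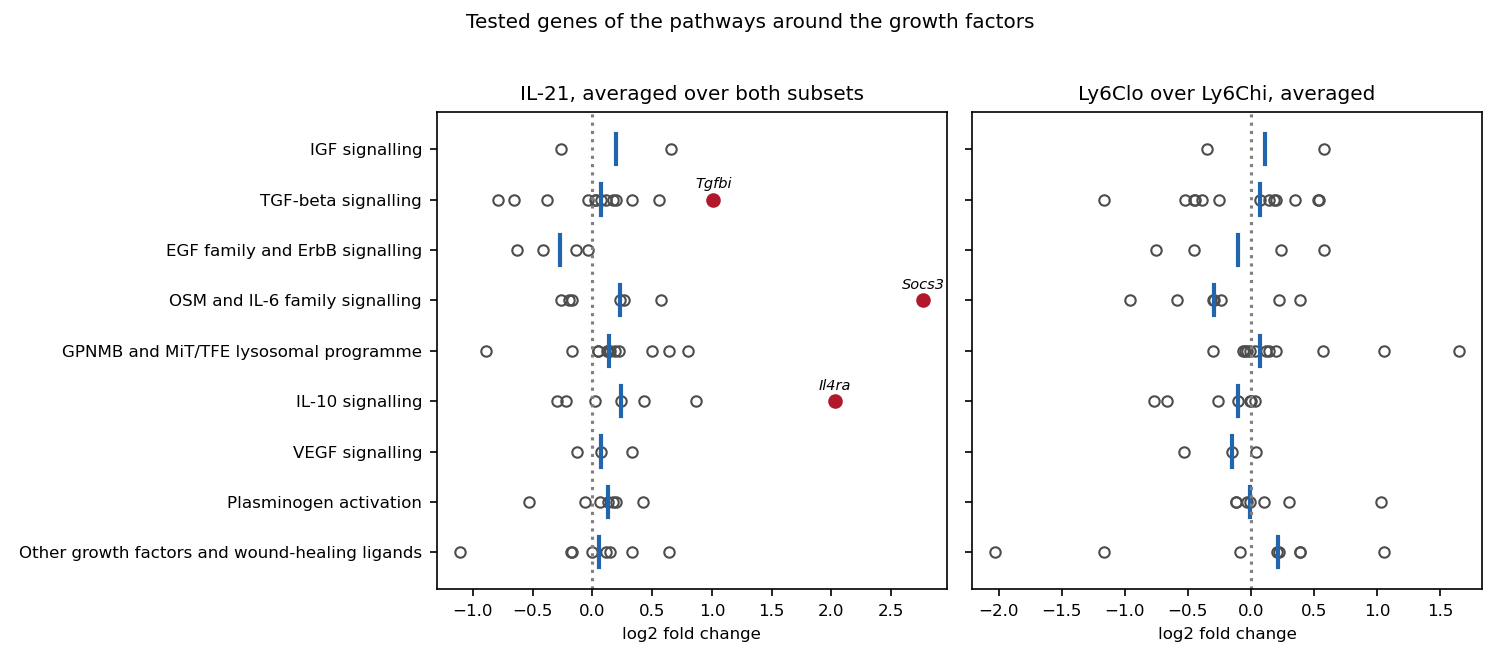
Log2 fold changes (x axis) of the tested genes of 9 pathway lists (y axis), with IL-21 averaged over both subsets on the left and Ly6Clo over Ly6Chi averaged on the right. Open circles did not pass the edgeR test over all genes, filled red circles did and are named, and the blue bar is the list's median. Tgfbi at 1.01, Il4ra at 2.03 and Socs3 at 2.77 are the filled points, and the right side has none.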

How the data were processed

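Per the labels' protocols, 3′ end libraries (QuantSeq, with a module for unique molecular identifiers) were sequenced as single reads of 75 bases. The authors deposited expected counts per Ensembl gene, which are raw per the file headers, and 53.3 to 59.7% of the values above 0 were not whole at a tolerance of 0.001. The submitters' processing notes name mm10 and DESeq2, with no version. The aligner, the counter, the annotation and any use of identifiers or strand: not given in the sources used here. Values were rounded to whole numbers. Symbols and coordinates came from GENCODE M21 (GRCm38), which matched 53237 of 53342 identifiers. Genes were kept by filterByExpr (minimum count 10, minimum total 15; here 36.2 CPM in at least 2 libraries), which left 5256. Counts were TMM-normalised and fitted with edgeR 4.0.16 (R 4.3.3) as 4 group means with the robust quasi-likelihood F test (4 residual degrees of freedom, biological coefficient of variation 0.201). A call is an adjusted p under 0.05, Benjamini-Hochberg over all tested genes. CPM use TMM-scaled totals.

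The fit was tested on simulated data. Replicate numbers come from the titles. Deviations of same-numbered libraries from their group means correlated in all 6 pairs of groups (Pearson r 0.228 to 0.405 across 5256 genes, which are not independent). No label says what a number shares, so the fits reported have no block, and the blocked value stands beside each call of the 10 genes that it changes. Alternatives were RLE scaling, 2 other filters, unrounded values, DESeq2 1.42.0, limma-voom (limma 3.58.1), the replicate number as a block, the compared groups alone and each library left out. The genes and lists were chosen with earlier results of these data known. By a fixed rule the text names all 10 genes, called list genes, receptors at 0 in every library (Osmr and Egfr), and the 2 genes of each list with the smallest p in the averaged IL-21 comparison. Il10ra, Il10rb, Igf1r, Pdgfra, Pdgfrb, Flt1, Plaur, Kdr and Pecam1 were named after their values were seen.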

Additional observations from a re-analysis of the deposited data

How the results depend on the processing

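Of the 10 growth factor genes, the number called in Ly6Clo over Ly6Chi averaged was 1 (Igf1) with RLE scaling, a mean of at least 20 counts, unrounded values, DESeq2 and limma-voom. It was 2 without a filter on low counts, where Pdgfa was called too (edgeR adjusted p 0.0363, in a fit that called 0.327% of 17757 genes), and 2 with a block for the replicate number. It ran from 0 to 1 with 1 library left out, fits in which 5815 to 5971 genes passed the filter and were tested. Under the replicate block the number was 1 (Igf1) in Ly6Clo over Ly6Chi without IL-21 (edgeR adjusted p 0.000912) and 1 (Igf1) with IL-21 (0.00942), in fits that called 0.59% and 0.78% of genes; the block changed no other call of the 10. The number stayed at 0 under every alternative in the 4 IL-21 comparisons, in which 2 to 10 of the genes were tested. There the block moved the calls over all genes to 60 averaged, 14 in Ly6Chi, 29 in Ly6Clo and 1 for the difference of the effects. With the block, edgeR adjusted p values in the averaged IL-21 comparison were 0.0931 for Igf1 and 0.128 for Plau. RLE scaling moved the median of all genes by at most 0.01.

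Signs reversed with 1 library left out only for log2 fold changes that had not passed. For Gpnmb they ran from -0.38 to 0 (IL-21 averaged), from -0.51 to 0.26 (IL-21 in Ly6Clo), from -0.27 to 0.51 (difference of the IL-21 effects), from -0.32 to 0.44 (Ly6Clo over Ly6Chi without IL-21), from -0.07 to 0.38 (with IL-21) and from -0.07 to 0.31 (averaged). For Pdgfa they ran from -1.4 to 0.3 (IL-21 in Ly6Clo), and for Plau from -0.56 to 0.71 (difference of the IL-21 effects), a value that was -0.18 with limma-voom. The cause was not tested. Depth limits Tgfb1, Pdgfb, Hbegf, Osm, Il10 and Vegfb, whose counting intervals leave room for changes of 1.5-fold and more.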
